A study of Mus musculus with 12 samples.

Results

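The IGHV1 genes are the variable segments of the mouse immunoglobulin heavy chain locus on chromosome 12 whose names begin with IGHV1-. Members were the cells whose first called heavy-chain V gene carried that name, and the rule took 8718 of 13740 cells with a heavy chain, 8191 of 12929 clones and 48 of 97 V genes. A clone is a set of cells of 1 mouse to which the authors gave the same clone name, and gene use below counts each clone once. The cells came from spleens of 4 male mice, enriched for CD45 on magnetic beads and loaded into 10x Genomics droplets. SLE.yaa 1 and SLE.yaa 2 were of strain B6.Sle1yaa, a lupus model that joins the Sle1 interval with Yaa, a piece of the X chromosome carrying Tlr7 that was moved to the Y chromosome. WT 1 and WT 2 were of strain C57BL/6. The deposited age was 14.9 in SLE.yaa mice and 14.4 in WT mice, with no unit given, so age and strain cannot be told apart. The labels name the groups under a tag on chimeras and do not say more on it.

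A heavy chain is assembled from 1 V, 1 D and 1 J gene, and the joint between them encodes CDR3, the most variable loop of the antigen-binding site. IGHV1, also called the J558 family, is the largest V family of the mouse and the one that C57BL/6 B cells use most. Naive B cells carry unmutated V regions with the IgM and IgD constant genes, while activated cells may switch to IgG, IgA or IgE and collect point mutations in V. Clones with a cell of isotype IgG, IgA or IgE are called switched here, those with an IgM or IgD cell unswitched, and mutation is the percent of V bases that differ from the called germline allele.

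IGHV1 chains were read in 2230 and 1816 cells of SLE.yaa 1 and SLE.yaa 2, against 2184 and 2488 cells of WT 1 and WT 2. These cells formed 1959 and 1627 clones in SLE.yaa mice and 2146 and 2459 clones in WT mice. Contigs of unswitched IGHV1 cells had medians of 14 and 8 UMIs in SLE.yaa mice and 11 and 10 UMIs in WT mice. Those of switched cells had 2286 and 1441 UMIs in SLE.yaa mice, against 7 and 8 UMIs in WT mice. Over all IGHV1 cells, contigs had medians of 401 and 451.5 reads in SLE.yaa mice, against 4320 and 5115.5 reads in WT mice. Depth thus moved with class and strain. The part of this in the results was not tested, beyond a repeat of the use fits with at least 3 UMIs per contig. Of 13660 barcodes, 80 occurred in more than 1 library, and 0 of them carried the same CDR3 in both. The expression table held 69.5% and 79.1% of the IGHV1 cells of SLE.yaa mice and 89.4% and 91.6% of those of WT mice. Among the unswitched cells annotated there as B cells, Cd79a was detected in at least 99.9% of cells of each mouse and Ms4a1 in 94.3% to 95.9%, while Cd3e was detected in at most 1.2%. In the annotated plasma cells, Jchain was detected in 99.5% and 98.5% of the IGHV1 cells of SLE.yaa mice.

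The germline segments of IGHV1-7 and of its nearest relative IGHV1-4 are shown because IGHV1-7 was the single IGHV1 gene that passed a test of use below. Both are written along the coding strand from the first V base to the base before the codon of the conserved cysteine that opens CDR3, as the deposited germline gives them. They lie at chr12:114538495-114538788 for IGHV1-7 and chr12:114487136-114487429 for IGHV1-4 in GRCm38, per the RefSeq annotation, and capitals mark the 7 of 285 bases that differ between them.
IGHV1-7: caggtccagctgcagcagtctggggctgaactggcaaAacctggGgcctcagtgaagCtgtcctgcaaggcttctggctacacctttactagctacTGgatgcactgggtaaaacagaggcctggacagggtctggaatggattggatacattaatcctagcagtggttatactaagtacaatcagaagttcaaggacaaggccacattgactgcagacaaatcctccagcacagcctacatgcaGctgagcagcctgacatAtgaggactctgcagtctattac
IGHV1-4: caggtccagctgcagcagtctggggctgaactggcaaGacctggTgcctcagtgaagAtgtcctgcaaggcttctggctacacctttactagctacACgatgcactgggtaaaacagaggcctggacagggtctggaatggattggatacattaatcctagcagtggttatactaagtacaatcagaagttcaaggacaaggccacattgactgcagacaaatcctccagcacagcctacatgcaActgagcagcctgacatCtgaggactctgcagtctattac
All 30 switched cells called IGHV1-7 lay nearer to IGHV1-7 than to any other germline V gene in the table, by at least 5 bases and by a median of 7 bases. V genes are called by likeness to germline, so nearness to the called gene is no separate check, and only the margin is described.

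CDR3 sequences of the 5 IGHV1 clones with most cells in SLE.yaa mice are shown because no WT clone reached such a size. Each runs from the conserved cysteine codon to the tryptophan codon that closes it, and capitals mark the bases between the matched V and J segments, which hold the D gene and the joints. CDR3 lengths, charges and residue counts in the text leave out that cysteine and that tryptophan.
IGHV1-82 with IGHJ3, 31 cells in SLE.yaa 1: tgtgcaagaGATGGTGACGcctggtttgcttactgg
IGHV1-72 with IGHJ4, 20 cells in SLE.yaa 2: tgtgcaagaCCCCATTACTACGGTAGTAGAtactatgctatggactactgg
IGHV1-26 with IGHJ1, 19 cells in SLE.yaa 2: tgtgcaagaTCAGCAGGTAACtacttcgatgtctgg
IGHV1-36 with IGHJ4, 19 cells in SLE.yaa 2: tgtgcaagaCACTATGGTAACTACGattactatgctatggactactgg
IGHV1-82 with IGHJ3, 15 cells in SLE.yaa 1: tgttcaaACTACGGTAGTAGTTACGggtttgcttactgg
For clones with several CDR3 sequences, the one carried by most cells is given.

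IGHV1 genes supplied a similar share of clones in both strains. They made up 61.7% and 62.7% of clones in SLE.yaa mice, against 62.6% and 66.0% in WT mice. WT 2 stood highest, and the groups overlapped, with WT 1 just below SLE.yaa 2. The log2 change of the family was −0.05 (SE 0.04), with an adjusted p of 0.444 in edgeR's quasi-likelihood test over 12 families. Of those families 8.33% were called, which was the family IGHV8 alone.

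Which IGHV1 genes were used was close to the same in all 4 mice. IGHV1-26 was the most used gene in every mouse, in 200 and 147 clones of SLE.yaa mice and 224 and 272 clones of WT mice, or 6.30% and 5.66% against 6.53% and 7.30% of all clones. It came well before IGHV1-64, with 3.46% and 4.43% of clones in SLE.yaa mice and 3.38% and 3.17% in WT mice. The 15 most used genes held 66.0% and 66.6% of the IGHV1 clones in SLE.yaa mice, against 67.6% and 66.9% in WT mice. Beside those 2 genes they were IGHV1-82, IGHV1-81, IGHV1-9, IGHV1-55, IGHV1-18, IGHV1-72, IGHV1-53, IGHV1-80, IGHV1-69, IGHV1-15, IGHV1-39, IGHV1-50 and IGHV1-52, with means over mice between 3.08% and 1.80%. IGHV1-72, at 2.27% and 2.66% in SLE.yaa mice and 2.77% and 2.95% in WT mice, is the gene known as VH186.2 that dominates the response of C57BL/6 mice to the hapten NP. At the other end, IGHV1-62-3 and IGHV1-23 had at most 2 clones in any mouse. Cells called IGHV1-62-2 were all called IGHV1-71 as well, 184 of 184, so this pair is counted as 1 gene. Over the 48 genes, Pearson's r of the shares was 0.96 between the SLE.yaa mice, 0.99 between the WT mice and 0.95 to 0.98 between mice of different strains. These correlations describe genes within 4 mice, and the genes share the same libraries.

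**Figure D1:**
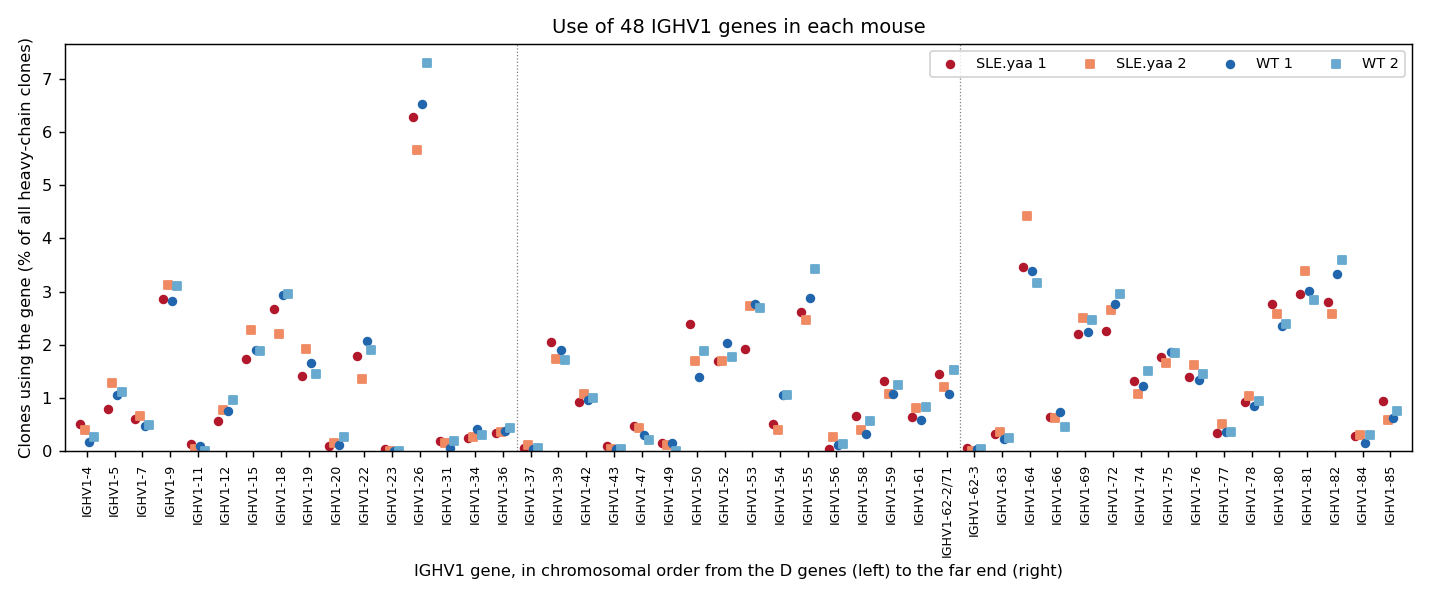
Percent of all heavy-chain clones that used each of 48 IGHV1 genes, with 1 point per mouse (red and orange for SLE.yaa, dark and light blue for WT). Genes run along the horizontal axis in chromosomal order from the D genes, and dotted lines divide them into 3 groups of 16; IGHV1-26 is highest in every mouse, at 6.30% and 5.66% in SLE.yaa mice and 6.53% and 7.30% in WT mice.

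No IGHV1 gene passed the test between strains. Of 69 V genes with at least 10 clones in at least 2 mice, 1.45% were called at an adjusted p of 0.05, which was IGHV8-8. Of the 37 IGHV1 genes among them, 0 were called. An unadjusted p under 0.05 in the edgeR test was reached by 5 of the 69 genes, 4 of which were IGHV1 genes. DESeq2 called 0 IGHV1 genes as well. The median log2 change was 0.01 over the 37 IGHV1 genes and 0.02 over all 69, and 20 of the 37 had a positive change. The 4 genes are named here after their values were seen. IGHV1-54 had 16 and 10 clones in SLE.yaa mice, against 36 and 39 clones in WT mice. Both SLE.yaa values were below both WT values, with a log2 change of −1.21 (SE 0.39) and an adjusted p of 0.0843 in the edgeR test. That p fell between 0.00794 and 0.534 under the alternatives, and 4 of them called the gene. IGHV1-82 had 89 and 67 clones in SLE.yaa mice and 114 and 134 in WT mice, with a log2 change of −0.36 and an adjusted p of 0.339 in the same edgeR test. IGHV1-55 had 83 and 64 clones in SLE.yaa mice and 99 and 128 in WT mice (log2 change −0.32). IGHV1-4 had 16 and 10 clones in SLE.yaa mice and 6 and 10 in WT mice (log2 change 1.0). Its counts met at 10 clones, but its shares of all clones did not overlap. They were 0.504% and 0.385% in SLE.yaa mice, against 0.175% and 0.268% in WT mice. Among the most used genes, the log2 change was −0.21 for IGHV1-26 and 0.25 for IGHV1-64, with an adjusted p of 0.511 for each in the edgeR test.

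The picture was the same in unswitched clones. Of 69 genes, 1.45% were called and 0 of 37 IGHV1 genes were. An unadjusted p under 0.05 in the edgeR test was reached by 6 of the 69 genes, 5 of which were IGHV1 genes. DESeq2 called 0 there too. IGHV1-54 again had the smallest p among them, with 12 and 10 unswitched clones in SLE.yaa mice and 36 and 38 in WT mice, a log2 change of −1.16 and an adjusted p of 0.108 in the edgeR test. The other 4 were IGHV1-47, IGHV1-82, IGHV1-26 and IGHV1-55. In switched clones, 0 of 29 genes were called, 0 of them at an unadjusted p under 0.05, so the background there was 0%. With TMM factors 0 IGHV1 genes were called, and 2 of the 29 genes had an unadjusted p under 0.05. That comparison rested on 368 and 252 switched IGHV1 clones in SLE.yaa mice and 18 and 6 in WT mice, and how large a difference it could detect was not tested.

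By position, the 48 genes were split into 3 groups of 16 along chromosome 12 of GRCm38. The group nearest the D genes held 32.9% and 32.8% of IGHV1 clones in SLE.yaa mice, against 34.2% and 34.2% in WT mice. The middle group held 27.5% and 25.9% in SLE.yaa mice and 26.7% and 27.5% in WT mice. The farthest group held 39.6% and 41.3% in SLE.yaa mice and 39.1% and 38.3% in WT mice. Both SLE.yaa mice were thus below both WT mice in the nearest group and above both in the farthest. The exact permutation p was 0.333 for each of these groups and 1 for the middle one, where 0.333 is the smallest p that 2 against 2 mice allow. Median log2 changes of the tested genes were −0.15 in the nearest, 0.02 in the middle and 0.09 in the farthest group, beside 0.02 over all V genes tested.

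Class switching set the strains apart. Of IGHV1 clones with a known isotype, 19.1% and 15.7% were switched in SLE.yaa mice, 368 of 1925 and 252 of 1608, against 0.840% and 0.244% in WT mice, 18 of 2143 and 6 of 2457. The groups did not overlap, and the means were 17.4% ± 2.44 and 0.542% ± 0.421 (SD, n = 2 each, exact permutation p = 0.333). Clones of other V families were switched at nearly the same rate, in 19.0% and 14.0% of SLE.yaa clones and 0.779% and 0.316% of WT clones. IGHV1 was above the other families in 3 of 4 mice, by 0.45 percentage points in the mean (SD 0.82, n = 4 mice, exact sign-flip p = 0.375, where 0.13 is the smallest possible). Read the other way, IGHV1 genes were used by 61.6% and 65.1% of switched clones in SLE.yaa mice and 64.3% and 60% in WT mice, the last on 6 of 10 clones. The exact 95% Clopper-Pearson intervals, which cover counting error only, were 57.6% to 65.6% and 60.1% to 69.9% in the SLE.yaa mice, and 44.1% to 81.4% and 26.2% to 87.8% in the WT mice.

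IgG2c, the C57BL/6 counterpart of IgG2a, was the isotype of most switched IGHV1 clones in SLE.yaa mice, with 188 and 136 clones. IgG2b followed with 116 and 66 clones, then IgG1 with 40 and 17, IgG3 with 24 and 32, and IgA with 21 and 18 (a clone with cells of several isotypes counts under each). In WT mice the isotype with most switched IGHV1 clones was IgG1 in WT 1, with 7 clones, while IgG2b and IgA had 2 clones each in WT 2. IGHV1 genes were used by 60.3% and 64.8% of all IgG2c clones and by 64.1% and 64.7% of all IgG2b clones in SLE.yaa mice. Among unswitched clones, the isotypes differed. IGHV1 genes made up 64.8% and 63.8% of clones read as IgD in SLE.yaa mice, against 74.1% and 73.2% in WT mice. Among clones read as IgM they made up 60.03% and 60.7% in SLE.yaa mice and 60.4% and 64.8% in WT mice. The IgD share was the higher of the pair in 4 of 4 mice, by 4.81 and 3.07 percentage points in SLE.yaa mice and by 13.7 and 8.35 in WT mice (mean 7.48, SD 4.68, exact sign-flip p = 0.13, the smallest possible). For IgD the SLE.yaa mice averaged 64.3% ± 0.732 and the WT mice 73.6% ± 0.646 (SD, n = 2 each), with an exact permutation p of 0.333 and an adjusted p of 0.667 over 6 classes.

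IGHV1-7 was used more in switched than in unswitched clones of SLE.yaa mice. It had 8 and 14 switched clones and 10 and 3 unswitched clones in SLE.yaa 1 and SLE.yaa 2. In WT mice it had 1 and 0 switched clones and 15 and 18 unswitched clones. The fit of switched against unswitched clones with a term for each mouse gave a log2 change of 3.04 (SE 0.80) with an adjusted p of 0.0152 in edgeR's quasi-likelihood test, and 1.45% of the 69 V genes were called, which was IGHV1-7 alone. Switched clones were 44.4% of the IGHV1-7 clones in SLE.yaa 1 and 82.4% in SLE.yaa 2, with exact 95% intervals of 21.5% to 69.2% and 56.6% to 96.2%. In the other IGHV1 genes together they were 18.9% and 14.96%, with intervals of 17.1% to 20.7% and 13.2% to 16.8%, so both mice stood above the rest. IGHV1-7 was picked by the fit from these same counts, and the intervals cover counting error only, so they add no separate test. In WT mice 1 of 16 IGHV1-7 clones (6.25%) and 0 of 18 were switched, with exact 95% intervals that reach 30.2% and 18.5%. By the limit of 3 counts, 0 of 18 allows a share of up to 16.7%.

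The IGHV1-7 call was not stable. The direction held under the alternatives that tested the gene, with log2 changes from 1.75 to 4.65, but a minimum of 20 clones left it untested and the call was lost with DESeq2 (adjusted p = 0.507), with each cell counted (edgeR, 0.161), with ambiguous calls left out (0.668), with clones defined by identical CDR3 (0.437) and with SLE.yaa mice alone (0.912). It was lost without any single mouse too, at adjusted p values of 0.0686 without SLE.yaa 1, 0.991 without SLE.yaa 2, 0.894 without WT 1 and 0.927 without WT 2 in the edgeR test. The adjusted p of 0.0152 rests on a spread shared by all genes, since edgeR estimated the prior degrees of freedom of its quasi-likelihood spread as infinite. With ambiguous calls left out, SLE.yaa mice alone, without WT 1 or without WT 2, the estimate was 1.9 to 3.8 and the log2 change stayed between 3.03 and 3.04. A test of whether the class effect differed between strains called 0 of 69 genes in edgeR, 0 of them at an unadjusted p under 0.05, and WT switched counts of 0 or 1 for most genes leave its fold changes without meaning.

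The switched IGHV1-7 cells were spread over many clones, as the authors named them. Whether these clones were separate lineages was not tested beyond those names. The 10 cells of the 8 clones in SLE.yaa 1 carried 8 CDR3 sequences, the 19 cells of the 14 clones in SLE.yaa 2 carried 16, and the largest clones held 2 and 3 cells. All 6 switched clones of 2 or more cells are shown to let their CDR3s be compared, with capitals as above. The last 2 of SLE.yaa 2 held 2 different CDR3s each, of which 1 is printed.
SLE.yaa 2, IGHJ2, IgG2c, 3 cells: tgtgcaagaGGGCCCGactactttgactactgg
SLE.yaa 2, IGHJ3, IgG2c, 2 cells: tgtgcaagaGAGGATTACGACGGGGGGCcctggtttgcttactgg
SLE.yaa 2, IGHJ3, IgA and IgG2c, 2 cells: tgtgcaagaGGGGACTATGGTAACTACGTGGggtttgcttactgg
SLE.yaa 2, IGHJ4, IgG3, 2 cells: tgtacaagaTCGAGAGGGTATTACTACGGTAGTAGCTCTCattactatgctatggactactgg
SLE.yaa 1, IGHJ4, IgG2b, 2 cells: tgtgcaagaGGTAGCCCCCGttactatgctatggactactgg
SLE.yaa 1, IGHJ4, IgA and IgG2c, 2 cells: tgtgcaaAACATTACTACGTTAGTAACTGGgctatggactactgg
In SLE.yaa 1 the switched clones used IGHJ1, IGHJ2, IGHJ3 and IGHJ4 in 1, 1, 4 and 2 clones, and in SLE.yaa 2 in 1, 7, 5 and 1 clones. Without the cysteine and tryptophan at their ends, their CDR3s spanned 8 to 17 amino acids in SLE.yaa 1 and 9 to 19 in SLE.yaa 2. IgG2c was found in 2 and 9 of the clones, IgG2b in 4 and 1, IgG3 in 1 and 2, and IgA in 2 and 3. Mutation of the switched clones had a median of 1.98% in SLE.yaa 1 (lowest 0%, highest 4.42%) and of 1.80% in SLE.yaa 2 (lowest 0.34%, highest 2.72%). The single switched WT clone had 1.02%. Of the switched IGHV1-7 cells found in the expression table, 4 of 4 in SLE.yaa 1 and 9 of 13 in SLE.yaa 2 were annotated as plasma cells. One unswitched IGHV1-7 clone of SLE.yaa 2 held 7 cells and had a mean mutation of 2.58%, the highest among its 3 unswitched clones.

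Among the 34 IGHV1 genes with at least 10 clones of known isotype in each SLE.yaa mouse, the median gene was switched in 17.9% of clones in SLE.yaa 1 and 14.3% in SLE.yaa 2. Next to IGHV1-7, the highest gene was IGHV1-19 at 38.6% in SLE.yaa 1 and IGHV1-66 at 37.5% in SLE.yaa 2, and neither was high in both mice, at 12% in SLE.yaa 2 and 15% in SLE.yaa 1. For IGHV1-64 the shares were 21.1% and 23.7%, and for IGHV1-26 they were 22.5% and 16.3%. IGHV1-76 had 2 and 4 switched clones beside 42 and 38 unswitched clones (log2 change −1.43), and IGHV1-15 had 4 and 6 beside 51 and 53 (log2 change −1.07). Both had an unadjusted p under 0.05 and an adjusted p of 0.937 in the edgeR test. With IGHV1-7 they made up the 3 of 69 V genes with an unadjusted p under 0.05 in that fit. Pearson's r between the 2 SLE.yaa mice over the 34 genes was 0.39 with IGHV1-7 and −0.11 without it, a description of genes from shared libraries that rests on 1 gene.

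**Figure D2:**
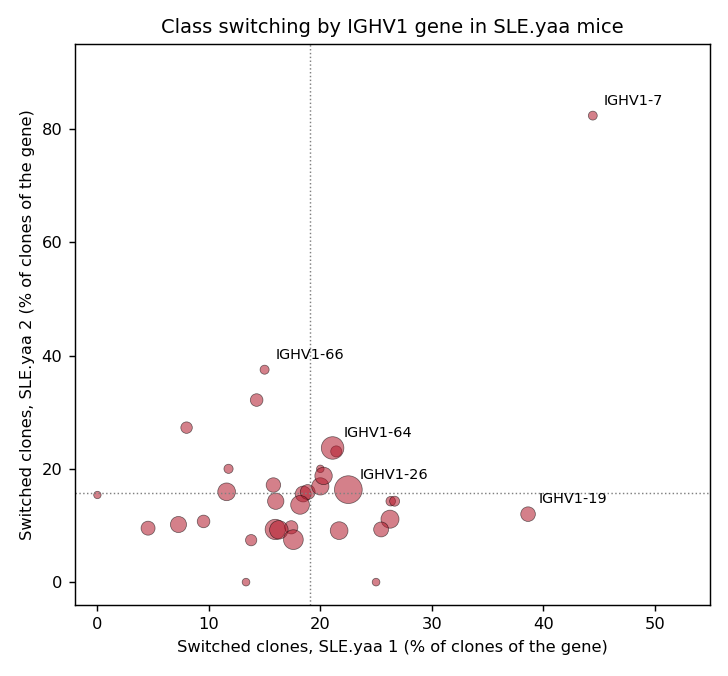
Percent of clones that were switched for each of 34 IGHV1 genes with at least 10 clones in each SLE.yaa mouse, SLE.yaa 1 on the horizontal and SLE.yaa 2 on the vertical axis, with the area of a circle in proportion to the number of clones. Dotted lines mark the shares over all IGHV1 clones, 19.1% and 15.7%, and IGHV1-7 stands apart at 44.4% and 82.4%.

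V regions of IGHV1 clones carried more mutation in SLE.yaa mice. The mean over clones was 0.270% and 0.219% of V bases in SLE.yaa mice, against 0.0248% and 0.0128% in WT mice. The groups did not overlap (0.244% ± 0.0363 and 0.0188% ± 0.00852, SD, n = 2 each, exact permutation p = 0.333). Clones with any mutated V base made up 18.6% and 15.1% in SLE.yaa mice and 2.28% and 1.67% in WT mice. The difference was present among unswitched clones, where the mean was 0.0828% and 0.0669% in SLE.yaa mice and 0.0123% and 0.0093% in WT mice (exact permutation p = 0.333). Unswitched clones with any mutated base were 7.01% and 4.48% of the total in SLE.yaa mice, against 1.65% and 1.47% in WT mice. By isotype, the mean was 0.115% and 0.105% in IgM clones of SLE.yaa mice, against 0.0141% and 0.0103% in WT mice. In IgD clones it was 0.0105% and 0.0071% in SLE.yaa mice, against 0.0043% and 0.0042% in WT mice. Cell types were not matched here. Plasma cells were 4.13% and 2.76% of annotated unswitched IGHV1 cells in SLE.yaa mice, against 0.155% and 0.176% in WT mice. Their part in the difference was not tested.

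Switched IGHV1 clones were mutated to a like degree in both SLE.yaa mice. Their means were 1.12% and 1.11% in SLE.yaa mice, against 1.59% and 1.45% in WT mice, on 368 and 252 clones against 18 and 6. The SLE.yaa values were below the WT values without overlap (exact permutation p = 0.333). Cell types were not matched. Of the switched IGHV1 cells in the expression table, 76.5% and 73.5% were annotated as plasma cells in SLE.yaa mice, against 0 of 10 in WT 1. Switched clones with any mutated V base were 70.4% and 75% of the total in SLE.yaa mice, against 83.3% in each WT mouse. In other families the means of switched clones were 1.0% and 0.813% in SLE.yaa mice and 1.56% and 0.934% in WT mice. Switched IGHV1 clones thus had the higher mean in 4 of 4 mice, by 0.24 percentage points (SD 0.21, exact sign-flip p = 0.13, the smallest possible, and 0.469 when adjusted over 15 measures). By gene, among the 19 IGHV1 genes with at least 5 switched clones in each SLE.yaa mouse, the mean spanned 0.334% for IGHV1-18 to 1.85% for IGHV1-7 in SLE.yaa 1, and 0.316% for IGHV1-52 to 2.75% for IGHV1-22 in SLE.yaa 2. Deposited counts of the changes, which were filled for switched cells, gave 0.806 and 0.821 replacement changes per switched IGHV1 clone in CDR1 and CDR2 of SLE.yaa mice, beside 0.207 and 0.161 silent ones. In the framework regions the counts were 1.39 and 1.52 replacement and 0.789 and 0.665 silent changes. Replacements were 79.6% and 83.6% of the IGHV1 changes in CDR1 and CDR2, beside 81.0% and 82.5% in other families of the same mice. In the frameworks they were 63.8% and 69.5% of the IGHV1 changes, beside 70.4% and 66.8% in other families.

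Mutation in unswitched clones was tested gene by gene with limma on the means per mouse. Of 54 V genes with at least 10 unswitched clones in every mouse, 0 were called, so the background was 0%, and 9 had an unadjusted p under 0.05, 8 of which were IGHV1 genes. The mean was higher in SLE.yaa mice for 27 of 31 IGHV1 genes and for 48 of all 54 genes, and the median difference was 0.0327 percentage points for both sets. IGHV1-42, named after its value was seen, had the smallest p. Its means were 0.247% and 0.247% in SLE.yaa mice, against 0% and 0.0092% in WT mice (difference 0.242, SE 0.0355, adjusted p = 0.13 in limma). IGHV1-53 had 0.227% and 0.179% in SLE.yaa mice and 0.0322% and 0% in WT mice (adjusted p = 0.145 in limma). IGHV1-72 had 0.285% and 0.120% in SLE.yaa mice and 0.0036% and 0.0125% in WT mice, without overlap.

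**Figure D3:**
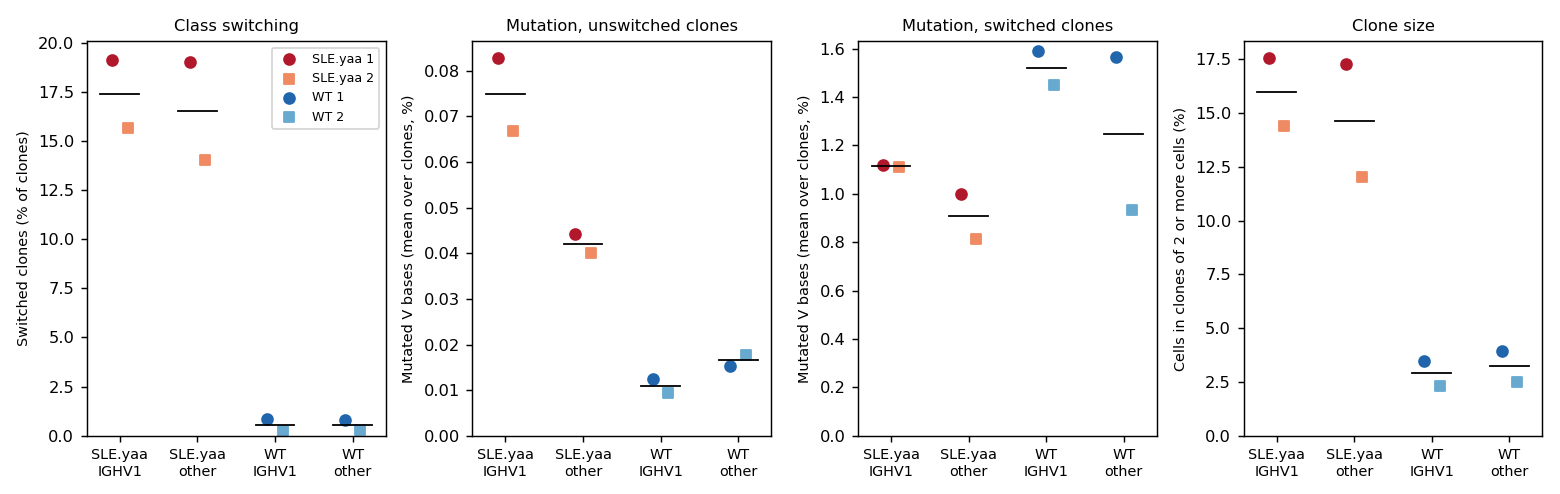
From left to right, the percent of clones that were switched, the mean percent of mutated V bases in unswitched and in switched clones, and the percent of cells in clones of 2 or more cells. Each point is a mouse and each line a group mean, for IGHV1 and for other V families in SLE.yaa and WT mice; SLE.yaa mice are above WT mice in all panels but that of switched clones, where IGHV1 means are 1.12% and 1.11% in SLE.yaa mice and 1.59% and 1.45% in WT mice.

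CDR3 loops of IGHV1 clones were alike in length between strains. The mean length was 12.19 and 12.15 amino acids in SLE.yaa mice, against 12.14 and 12.12 in WT mice. The groups did not overlap but differed by 0.04 amino acids (exact permutation p = 0.333), and in unswitched clones the means were 12.14 and 12.14 in SLE.yaa mice and 12.15 and 12.13 in WT mice, which overlapped (exact permutation p = 1). Switched clones averaged 12.4 and 12.2 amino acids in SLE.yaa mice and 11.3 and 10.2 in WT mice, the WT values again on 18 and 6 clones. By gene, 0 of 58 V genes differed in CDR3 length in limma (background 0%), with 4 at an unadjusted p under 0.05, of which 0 were among the 33 IGHV1 genes tested. The number of arginines per CDR3 was 1.122 and 1.121 in SLE.yaa mice and 1.159 and 1.170 in WT mice. The net charge, lysines and arginines minus aspartates and glutamates, was −0.355 and −0.321 in SLE.yaa mice and −0.317 and −0.274 in WT mice. Both were lower in both SLE.yaa mice than in either WT mouse, with mean differences of −0.04 arginines and −0.04 charges (exact permutation p = 0.333 for each). Tyrosines per CDR3 were 2.50 and 2.59 in SLE.yaa mice and 2.52 and 2.51 in WT mice.

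Between families, the charge differed in every mouse. Other V families had a net charge of −0.483 and −0.441 in SLE.yaa mice and −0.457 and −0.399 in WT mice, so IGHV1 was higher by 0.120 to 0.140 charges in 4 of 4 mice (mean 0.128, SD 0.00869). Arginines were more numerous in IGHV1 by 0.087 to 0.115 per CDR3, also in 4 of 4 mice (mean 0.103, SD 0.0122). The exact sign-flip p was 0.13 for each, the smallest that 4 mice allow, and 0.469 when adjusted over 15 measures.

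**Figure D4:**
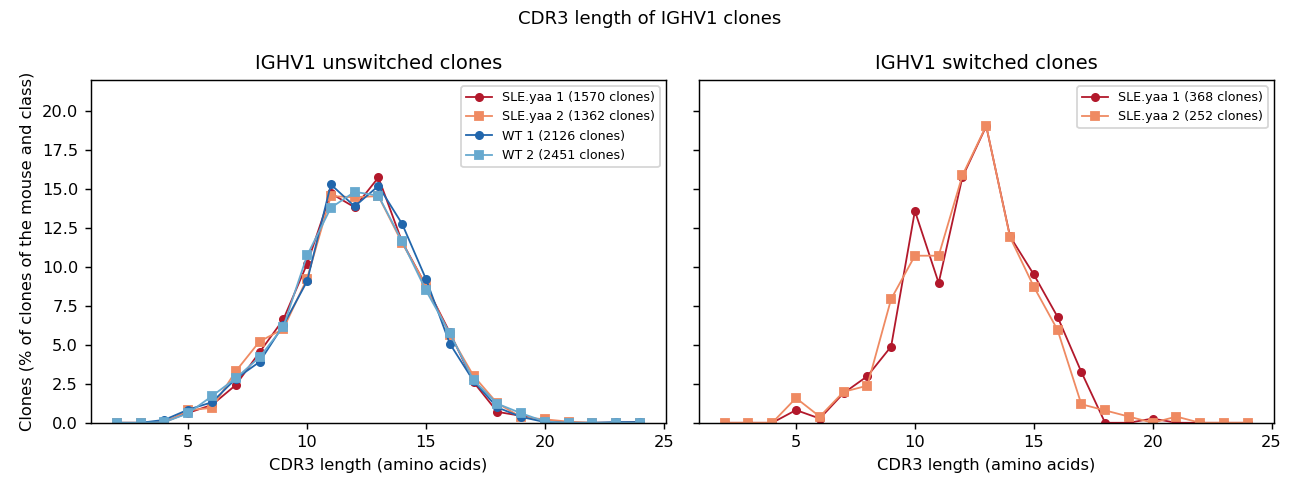
Percent of IGHV1 clones with each CDR3 length in amino acids, unswitched clones on the left and switched clones on the right, with 1 line per mouse. Lines of the 4 mice lie close together in unswitched clones; on the right the WT mice, with 18 and 6 clones, are left out, and both SLE.yaa lines peak at 13 amino acids, at 19.0% of clones each.

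J gene use of IGHV1 clones was close in all mice. IGHJ2 was the most used, in 32.1% and 34.5% of IGHV1 clones of SLE.yaa mice and 35.1% and 33.3% of WT mice, and IGHJ4 came next with 27.8% and 26.2% against 27.3% and 27.7%. IGHJ3 was used by 23.3% and 23.1% of clones in SLE.yaa mice and 21.3% and 22.4% in WT mice, the one J gene whose groups did not overlap (exact permutation p = 0.333, adjusted p = 1 over 4 J genes). IGHJ1 was used by 16.9% and 16.2% in SLE.yaa mice and 16.3% and 16.7% in WT mice. Exact permutation p values of IGHJ1, IGHJ2 and IGHJ4 were 1, 0.667 and 1.

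IGHV1 clones were larger in SLE.yaa mice. Clones of 2 or more cells numbered 121 and 73 in SLE.yaa mice, against 38 and 29 in WT mice, and clones of 3 or more numbered 34 and 23 against 0 and 0. Clones of 2 or more cells held 17.6% and 14.4% of IGHV1 cells in SLE.yaa mice, against 3.48% and 2.33% in WT mice. Both SLE.yaa values were above both WT values (16.0% ± 2.23 and 2.91% ± 0.812, SD, n = 2 each, exact permutation p = 0.333). The chance that a pair of IGHV1 cells of a mouse belonged to 1 clone was 473 and 522 per 1000000 pairs in SLE.yaa mice and 15.9 and 9.37 per 1000000 pairs in WT mice (exact permutation p = 0.333). In other families the shares of cells in such clones were 17.3% and 12.02% in SLE.yaa mice and 3.95% and 2.49% in WT mice. Other families had 26 and 14 clones of 3 or more cells in SLE.yaa mice. In WT mice they had 4 and 1, the largest of 8 and 4 cells. Their pair chances were 341 and 557 per 1000000 in SLE.yaa mice and 75.1 and 24.2 in WT mice. Of the SLE.yaa IGHV1 clones of 2 or more cells, 77 and 48 were switched throughout, 31 and 19 unswitched, and 13 and 6 held both. IGHV1 clones of 2 or more cells with no mutated base in any cell numbered 26 and 14 in SLE.yaa mice, against 36 and 28 in WT mice. In WT mice 36 and 28 were unswitched throughout.

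The 5 largest clones, whose CDR3s stand above, were of different kinds. Their contigs had medians of 161, 989.5, 2137, 2581 and 110 UMIs, in the order given below. Medians over IGHV1 cells of SLE.yaa 1 and SLE.yaa 2 were 2286 and 1441 UMIs in switched cells and 14 and 8 in unswitched cells. What these counts mean for the sizes of the clones was not tested. The IGHV1-82 clone of 31 cells was IgG2c in 31 of 31 cells, with a median mutation of 1.02% and 30 cells sharing 1 CDR3, and 3 of its cells were in the expression table. The IGHV1-72 clone of 20 cells held 15 CDR3 sequences and 13 IgG2c, 5 IgG2b, 1 IgG3 and 1 IgA cell, with mutation from 0% to 2.06%. The IGHV1-26 clone of 19 cells was IgG2b throughout, with 13 CDR3 sequences and mutation from 0% to 2.74%, and 13 of 13 cells in the expression table were annotated as plasma cells. The IGHV1-36 clone of 19 cells had 14 IgG2b, 4 IgG2c and 1 IgM cell, and its annotated cells were 6 plasma cells and 5 B cells. The second IGHV1-82 clone, of 15 cells, was IgM in 15 of 15 cells, which all had a mutation of 1.03%, and 8 of the 9 in the expression table were plasma cells. In WT mice the largest IGHV1 clones held 2 cells, 38 clones in WT 1 and 29 in WT 2, so none is named.

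**Figure D5:**
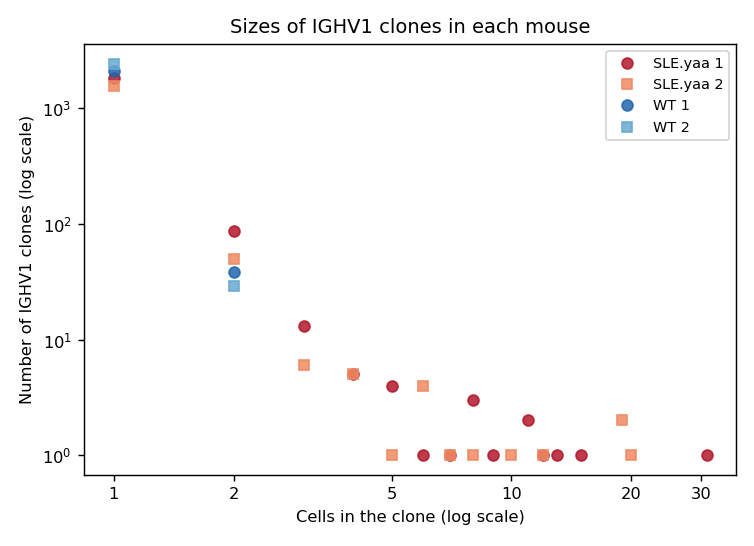
Number of IGHV1 clones of each size, in cells per clone, with both axes on a log scale and 1 point per size and mouse. WT clones stop at 2 cells, with 38 and 29 clones, while SLE.yaa clones reach 31 cells in SLE.yaa 1 and 20 cells in SLE.yaa 2.

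CDR3s shared between mice were rare. Of 8367 pairs of an IGHV1 gene and a CDR3 nucleotide sequence, 2 occurred in 2 mice. Of 8321 pairs with the amino acid sequence, 5 occurred in 2 or more mice, 1 of them in 3. Both nucleotide matches are short and are shown with capitals as above.
IGHV1-80: tgtgcaagaGGGgcttactgg
IGHV1-72: tgtgcaagaGGGGGGgactactgg
The IGHV1-80 sequence was carried by 4 cells of 1 clone in SLE.yaa 1 and by 1 cell in SLE.yaa 2, all with IGHJ3, of isotype IgG2b or IgG2c, and with mutation of 1.70% to 4.08% in SLE.yaa 1 and 2.72% in SLE.yaa 2. The IGHV1-72 sequence was carried by 1 IgM cell of SLE.yaa 2, annotated as a B cell, and 1 IgM cell of WT 2, annotated as CD4. Both had no mutated V base, and their J calls differed.

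The cell types of IGHV1 cells followed their class. Types other than B and plasma cells were annotated for 2.90% and 1.88% of the IGHV1 cells in SLE.yaa mice, against 2.66% and 2.81% in WT mice. Of the IGHV1 cells in the expression table, 12.8% and 13.9% were annotated as plasma cells in SLE.yaa mice, against 0.154% and 0.219% in WT mice, 3 of 1952 and 5 of 2279 cells. Among switched IGHV1 cells the plasma cell share was 76.5% and 73.5% in SLE.yaa mice (143 of 187 and 166 of 226), with exact 95% intervals of 69.7% to 82.4% and 67.2% to 79.1%. In WT 1 it was 0% of 10 switched IGHV1 cells. In switched cells of other families the plasma cell share was 83.6% and 72.7% in SLE.yaa mice. IGHV1 genes were used by 56.3% and 68.5% of plasma cell clones in SLE.yaa mice, with intervals of 50.0% to 62.6% and 61.2% to 75.2%, against 27.3% and 45.5% in WT mice, 3 of 11 and 5 of 11 clones, with intervals of 6.02% to 61.0% and 16.7% to 76.6%. Both WT shares were below both SLE.yaa shares, and the intervals of WT 1 and WT 2 overlapped that of SLE.yaa 1. In the main B cell type they were used by 62.6% and 62.9% of clones in SLE.yaa mice and by 63.3% and 66.8% in WT mice. In the type annotated as early B cells the shares were 56.6% and 59.8% in SLE.yaa mice and 57.5% and 59.9% in WT mice, below those of the main type in each mouse. Their exact 95% intervals were 45.3% to 67.5% and 50.4% to 68.8% in SLE.yaa mice, on 83 and 117 clones. In WT mice they were 51.0% to 63.8% and 53.2% to 66.3%, on 240 and 227 clones. Only the interval of WT 2 lay below the share of the main type. In the type named for interferon genes the shares were 61.5% and 66.7% in SLE.yaa mice and 55.8% and 67.9% in WT mice, on 39 to 112 clones.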

How the data were processed

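Single-cell B cell receptor and expression libraries of 2 SLE.yaa and 2 WT mice were used. Per the submitters' processing notes, Cell Ranger 5.0.0, Seurat 4.0.0 and GRCm38 were used. The authors deposited 1 heavy chain per cell, with UMI and read counts per contig, the fraction of V bases equal to germline, gene, isotype and clone calls, and mutation counts. The expression values deposited are natural log (ln) of 1 plus a whole depth-adjusted number whose making is not stated in the labels, and served for markers and cell types only. Cell types are the authors' annotation. No doublet caller was run, and IGHV1 cells annotated as other types were kept, except in 1 alternative. Columns of samples that could not be mapped numbered 0.

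Clones were counted once per gene and mouse with the clone total as library size. Genes with at least 10 clones in at least 2 mice (5 for switched clones) were tested with edgeR 4.0.16 quasi-likelihood fits, two-sided, with Benjamini-Hochberg adjustment over all V genes and a threshold of 0.05. The SE given with an edgeR log2 change was worked back from the test, as the absolute change over the square root of its F statistic. Gene means of mutation and CDR3 length were tested with limma 3.58.1. Single values were tested with two-sided exact permutation tests over mice in Python 3.11.15, and differences within mice with exact sign flips. DESeq2 1.42.0 was an alternative. Members and lists were chosen with earlier results of these data known. Named genes were the 15 IGHV1 genes with the highest mean share and those called in a fit, and named clones the 5 largest of each group. Intervals are 95% Clopper-Pearson. Steps across genes were tested on simulated data. With no spread between mice beyond sampling, the fit of switched against unswitched clones called 10.2% of genes changed 2-fold. It called 61.7% of those changed 4-fold. The fit between strains called 83.3% of genes changed 2-fold.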

Additional observations from a re-analysis of the deposited data

Results flagged for a closer look

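In 5 of 15 measures, the difference between IGHV1 clones and those of other families pointed one way in both SLE.yaa mice and the other way in both WT mice. Measures over all clones include the unswitched clones, so these 5 are not separate from each other. The difference between strains was not tested in any of them. Mean V region mutation of all clones was higher in IGHV1 by 0.0522 and 0.0740 percentage points in SLE.yaa mice and differed by −0.0026 and −0.0079 in WT mice, so the effects differed by 0.0684. In unswitched clones the differences were 0.0386 and 0.0269 in SLE.yaa mice and −0.0031 and −0.0083 in WT mice, which differ by 0.0384. Mean CDR3 length differed by −0.109 and −0.204 amino acids in SLE.yaa mice and by 0.0047 and 0.0083 in WT mice, which differ by −0.163. In unswitched clones the length differed by −0.130 and −0.171 in SLE.yaa mice and by 0.0320 and 0.0127 in WT mice, which differ by −0.173. The share of cells in clones of 2 or more cells differed by 0.28 and 2.41 percentage points in SLE.yaa mice and by −0.47 and −0.16 in WT mice, which differ by 1.66.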

How the results depend on the processing

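Differences between SLE.yaa and WT mice in mutation, CDR3 length, arginines, charge, IGHJ3 use and clone size kept their direction under every alternative run for them, leaving out each mouse included. No paired analysis was possible because the replicate numbers only name the mice and tie no SLE.yaa mouse to a WT mouse. The number of IGHV1 genes called between strains was 0 and became 1, IGHV1-54, with no filter, with a dispersion without a trend, with ambiguous calls left out and with clones by identical CDR3, and it stayed at 0 without any 1 mouse. In unswitched clones it became 1 without a trend. The 1 call of switched against unswitched clones became 0 with each cell counted, DESeq2, at least 20 clones (where the gene was not tested), ambiguous calls left out, clones by identical CDR3, SLE.yaa mice only and without any 1 mouse, with finite prior degrees of freedom in 4 of these settings, as given above; in the rest the cause was not tested. Repeats with at least 3 UMIs, with annotated B and plasma cells and with the Cell Ranger V gene were chosen after seeing the data. Genes called for mutation in unswitched clones numbered 2 with at least 20 clones in every mouse, 1 without a trend, and 0 to 13 without 1 mouse, where the lone sample is assumed to vary like the others. The family change of −0.05 became 0.0022 with DESeq2 and spanned −0.09 to −0.01 without 1 mouse.

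Uncalled changes that turned sign were those of IGHV1-9 (0.0019 on the log2 scale; −0.074 with each cell counted, −0.049 with identical CDR3, −0.023 with 3 UMIs, −0.016 with annotated cells, −0.061 to 0.077 without 1 mouse), IGHV1-72 (−0.23; 0.096 with each cell counted), IGHV1-15 (0.07; −0.076 with each cell counted, −0.12 to 0.27 without 1 mouse), IGHV1-39 (0.08; −0.027 with each cell counted, −0.056 to 0.18 without 1 mouse), IGHV1-69 (−0.01; 0.016 with DESeq2, −0.10 to 0.085 without 1 mouse) and IGHV1-53 (−0.25; −0.50 to 0.0060 without 1 mouse). Without 1 mouse, the difference in tyrosines spanned −0.013 to 0.075, in IGHJ1 −0.24 to 0.43, in IGHJ2 −2.16 to 0.26 and in IGHJ4 −1.27 to 0.31 percentage points. IGHJ4 was 0.54 with each cell counted. Against IGHV5 clones alone, the switched share of IGHV1 clones differed by −0.52 and cells in clones of 2 or more by −1.55 percentage points. The fit of switched clones without an SLE.yaa mouse gave no value, since no gene passed the filter. Values of switched WT clones rest on fewer than 20 IGHV1 clones per mouse.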

Other observations

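Among the 48 IGHV1 germline segments as deposited, the closest pair was IGHV1-72 and IGHV1-62-3, which differ at 2 of 285 compared bases. IGHV1-62-3 had 2 and 0 clones in SLE.yaa mice and 1 and 1 in WT mice. IGHV1-20 and IGHV1-37, and IGHV1-52 and IGHV1-61, differ at 4 bases each. Of the 962 switched IGHV1 cells, 0 lay as near or nearer to another of the germline genes compared than to the one called. IGHV1-71 is not among the 48 segments, so cells called both IGHV1-62-2 and IGHV1-71 were not compared with it. In annotated plasma cells with an IGHV1 chain, the monocyte marker Ly6c2 was detected in 67.7% and 80.9% of cells in SLE.yaa mice, while Csf1r was detected in 0.505% and 0.503% and Lyz2 in 1.52% and 1.01%.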
